A study of Mus musculus with 86 samples.

Results

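The reporter oligos described here tile 3′ UTR sequence of the mouse gene Synj2bp (ENSMUSG00000090935). They were chosen by name: every oligo whose name carries the symbol Synj2bp was taken, whether wild-type or motif-mutated, in the massively parallel reporter assay (MPRA), the RNA Bind-n-Seq (RBNS) assay and the SLAM-seq assay. This gave 1177 of the 11955 oligos in the pool, 780 with the wild-type sequence and 397 in which the TDP-43 motifs had been changed. For comparison of size, Diras1 contributed 640 oligos and Lrrc47 contributed 437. Each oligo is 260 bases long and starts 6 bases after its neighbour, so neighbouring oligos share nearly all of their sequence and are not independent of each other. Oligos are named by their number along the UTR, from 5′ to 3′.

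Synj2bp, also called OMP25, encodes a tail-anchored protein of the mitochondrial outer membrane with a PDZ domain facing the cytosol. With the inositol phosphatase Synj2, which binds RNA, it holds the mRNA of the mitophagy kinase Pink1 on mitochondria that travel into neurites. TDP-43, encoded by Tardbp, is a nuclear RNA-binding protein that binds UG-rich RNA and acts in splicing, polyadenylation, RNA stability and RNA transport. A library of oligos cloned into the 3′ UTR of a reporter tests whether a short stretch of UTR sequence is enough to change where an RNA is found.

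The MPRA was done in CAD cells, a mouse neuronal line, that carry a doxycycline-off, HA-tagged TDP-43 transgene in place of the endogenous gene, whose alleles were cut with Cas9. Cells without doxycycline are called wild-type and cells with doxycycline are called knockout, and each was separated on a porous membrane into soma and neurite fractions, with 4 samples per group. The lines are single clones, wild-type and knockout differ in doxycycline as well as in TDP-43, and the labels do not say that replicates were separate cultures, so p-values measure only the spread between these samples. In RBNS the pool, transcribed as RNA, was bound in vitro to purified TDP-43 at 0, 5, 50 or 500 nM, with 2 samples at each concentration above 0 and 1 each of the 0 nM pulldown and of the input. In SLAM-seq the same pool was labelled in CAD cells with 4-thiouridine (4SU) and chased with uridine for 0 or 12 h, with 2 wild-type samples at 0 h, 3 in every other group and 3 unlabelled samples. All knockout samples are labelled with 2 µg/mL doxycycline for 48 h, while the study's methods give another dose for the fractionations. Endogenous RNA was measured in soma and neurites of the same kind of knockout in CAD and in N2A cells, a mouse neuroblastoma line, and in CAD cells with an inducible wild-type or Q331K TDP-43 transgene, with 3 samples per group. By the study's account that transgene lowers the cells' own TDP-43, so that most of their TDP-43 comes from it.

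Libraries held 7923270 to 12208997 UMIs in the MPRA, 1806779 to 9646262 reads in RBNS and 10782983 to 33024830 reads in SLAM-seq. Endogenous libraries held 25009904 to 32895542 estimated counts in CAD, 22726534 to 31911030 in N2A and 9783050 to 15870647 in the transgene lines. In SLAM-seq 1 library, knockout 12 h replicate 1, stood apart, and results that rest on it are given with and without it. In knockout cells Tardbp was lower in CAD soma by a log2 difference of -2.52 and in CAD neurites by -1.89, and in N2A by -1.78 and -1.41. Of 7 neuronal marker genes, 6 were above a level of 1 TPM, a level per transcript length, in CAD and 5 in N2A, where Th and Nefl were below.

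By their names and the gene models, the oligos follow 2 alternative ends of Synj2bp, which lies on the minus strand at chr12:81497941-81532911 (GRCm38/mm10, GENCODE vM21 models). A total of 86 wild-type oligos run through the alternative last exon of the transcript Synj2bp-202, and 694 run through exon 3 and the last exon of Synj2bp-203, whose 3′ UTR covers 4088 bases at chr12:81497941-81502028. The positions were inferred from the names, and the motifs they predict matched the name of the mutated companion for 780 of 780 wild-type oligos. TDP-43 motifs (TGTGT, or GTGTG, or GTATG in DNA letters) merge into 11 sites. Of the wild-type oligos 383 hold no site, 318 hold 1, 76 hold 2 and 3 hold 3. The sites on which the binding results turn are printed below from 5′ to 3′ on the minus strand, read from the GENCODE vM21 transcripts, with the motif letters in capitals, because they are the sequence that the mutated companions lose.
Site 1, chr12:81504552-81504580, exon shared by both ends, coding in Synj2bp-202 and Synj2bp-203, oligos 1 to 50: tgcgggatgtgcTGTGTccctgagagtac
Site 2, chr12:81504366-81504394, 3′ UTR in the last exon of Synj2bp-202, in 42 oligos: tcagtaaaagaaGTATGtaacccaagttc
Site 3, chr12:81501990-81502019, start of the 3′ UTR, in 43 oligos: tgctgtcttccaGTGTGTccaatgaactct
Site 4, chr12:81501812-81501840, 3′ UTR, oligos 117 to 159: gctgtggtgGTGTGTGTGTGggggaagcc
Site 5, chr12:81500715-81500743, 3′ UTR, oligos 300 to 342: gagaaggcattgGTATGggttttcttttt
Site 6, chr12:81499514-81499542, 3′ UTR, oligos 500 to 542: taaaacactgtTGTGTGTtgtattgttga
Site 8, chr12:81498740-81498768, 3′ UTR, oligos 629 to 671: gagtgagatgaGTGTGTGccagccagcaa
Site 9, chr12:81498441-81498469, 3′ UTR, oligos 679 to 721: tacagaggcagaGTATGaagtggaacatt
Site 11, chr12:81498199-81498228, 3′ UTR, oligos 719 to 761: aaatttgttttaGTGTGTccacaacatgaa
The longest run of motif letters, 11 bases, is site 4. In another transcript of the gene, Synj2bp-204, the stop codon lies upstream of site 1, so there site 1 is 3′ UTR. In the mutated companions TGTGT is replaced by ACACA, while GTGTG is replaced by CACAC and GTATG by CATAC.

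The first question was whether Synj2bp reporters change in soma or neurites when TDP-43 is lost. As a whole their summed level overlapped between genotypes in both fractions. Summed over all Synj2bp oligos, the level was 83450, 83810, 85440 and 84960 CPM in wild-type soma (UMIs as a share of the library, scaled to a fixed total) and 82860, 83930, 88130 and 85080 CPM in knockout soma. The sum was 86500, 85100, 85450 and 87010 CPM in wild-type neurites and 83780, 84470, 85200 and 86010 CPM in knockout neurites. The localization ratio (LR), the log2 level in neurites minus that in soma, was 0.03 for the summed oligos of wild-type cells and 0.00 for those of knockout cells, a change of -0.03. Split by the end of the gene, the summed change was 0.01 for the Synj2bp-202 oligos and -0.03 for the Synj2bp-203 oligos. These levels are scaled by edgeR's TMM. As a plain share of UMIs, Synj2bp oligos took 9.52% to 9.84% in wild-type soma, 8.79% to 9.31% in knockout soma, 9.53% to 9.78% in wild-type neurites and 6.08% to 6.43% in knockout neurites.

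Of 1172 Synj2bp oligos tested, 1 fell in LR in knockout cells and 0 rose (edgeR quasi-likelihood, FDR 0.01 over the pool), against 5.15% of all 11918 oligos higher and 0.277% lower. At an unadjusted p under 0.05 there were 47. The median change was -0.03, the middle 95% of Synj2bp oligos ran from -0.24 to 0.16, and the median standard error was 0.09, whereas the middle 95% of the pool ran from -0.23 to 2.04. In soma 2 Synj2bp oligos rose and 1 fell, beside 7.55% and 0.101% of the pool. In neurites 4 rose and 4 fell, beside 8.06% and 0.696% of the pool. Scaling by the upper quartile moved the median of all oligos in neurites from -0.02 to -0.16, and 0 Synj2bp oligos were then higher and 366 lower, with 889 higher and 3998 lower over the pool. In soma that scaling gave 0 higher and 13 lower.

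The oligo whose LR fell was Synj2bp.766, near the distal end of the 3′ UTR. It covers chr12:81497929-81498188, runs past the annotated end of the gene, holds 0 motif sites and has a GC content of 31.0%. Its level was 33.9, 31.4, 32.7 and 32.7 CPM in wild-type soma and 37.1, 37.8, 38.9 and 40.2 CPM in knockout soma, so every knockout soma sample was above every wild-type one. In neurites it was 39.0, 36.1, 36.6 and 35.8 CPM in wild-type and 36.3, 32.9, 34.1 and 32.6 CPM in knockout cells, and the groups overlapped. The change in LR of Synj2bp.766 was -0.35 (SE 0.09, edgeR quasi-likelihood, FDR 0.00693), made up mainly of a rise of 0.23 in soma (SE 0.06, FDR 0.00616). Without replicate 1, 2, 3 or 4 the change in LR was -0.39, -0.34, -0.35 or -0.33, and its FDR was then 0.0165 to 0.0992, so the call was lost in each case. With reads in place of UMIs it was -0.33 (FDR 0.0291).

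Of the other called levels, Synj2bp.11, which holds site 1, rose in neurites and Synj2bp.104, which holds site 3, fell there, and the rest came from 3 stretches of the UTR. Around site 5, 3 mutated reporters were called higher. The 43 wild-type oligos with site 5 had median changes of 0.086 in soma and 0.052 in neurites, with 0 called. Whether loss of the site matters for these levels was not tested. Synj2bp.310 mutated, with 5 changed positions, was at 110.4, 109.2, 112.8 and 108.9 CPM in wild-type soma and at 123.5, 117.8, 121.1 and 134.9 CPM in knockout soma, and at 107.1, 113.0, 109.4 and 112.9 CPM in wild-type and 131.0, 128.1, 123.3 and 120.8 CPM in knockout neurites. It did not overlap between genotypes in either fraction, and rose by 0.17 in soma (FDR 0.00654) and by 0.19 in neurites (FDR 0.00441). Synj2bp.341 mutated rose in neurites by 0.25 (SE 0.06, FDR 0.00198), from 113.4, 127.0, 141.1 and 120.5 to 154.1, 150.9, 140.0 and 152.1 CPM. Synj2bp.342 mutated rose there by 0.37 (SE 0.09, FDR 0.0053), from 21.2, 28.6, 23.8 and 27.2 to 29.7, 30.5, 32.9 and 35.8 CPM. The first of these 2 overlapped in 1 knockout sample and the second did not overlap.

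Near the middle of the UTR, Synj2bp.384 and Synj2bp.387 fell in knockout neurites. Synj2bp.384 went from 44.9, 46.1, 47.0 and 47.5 CPM to 34.4, 41.4, 34.3 and 42.1 CPM (log2 change -0.29, SE 0.07, edgeR FDR 0.00303), while in soma it was at 42.8 to 45.5 CPM in wild-type and 41.6 to 45.3 CPM in knockout cells. Synj2bp.387 went from 60.9, 58.9, 61.9 and 71.4 CPM to 50.9, 50.0, 53.5 and 56.5 CPM (-0.26, SE 0.06, FDR 0.00287). Neither overlapped between genotypes in neurites, and the LR change of neither passed the test. Over site 11, Synj2bp.751 fell in both fractions, from 109.1, 108.0, 104.7 and 106.2 to 97.8, 95.3, 96.1 and 96.2 CPM in soma (-0.15, FDR 0.00782) and from 105.8, 97.9, 98.4 and 101.8 to 86.4, 90.2, 90.4 and 85.2 CPM in neurites (-0.20, FDR 0.00088).

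Localization along the UTR in wild-type cells was flat except in 1 stretch. In wild-type cells 10 Synj2bp oligos were higher in neurites than in soma and 1 was lower (edgeR quasi-likelihood, FDR 0.01), beside 2.57% and 1.48% of the pool. Of the 9 with wild-type sequence among the 10, 8 lie between numbers 151 and 200, just after site 4, and 1 between 601 and 650. The LR of the summed oligos numbered 151 to 200 was 0.18 in wild-type cells and 0.17 in knockout cells, while the other stretches of 50 numbers ran from -0.03 to 0.04 in wild-type cells. The change in summed LR with genotype ran from -0.09 in numbers 551 to 600 to 0.02 in numbers 1 to 50.

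Within that stretch, Synj2bp.184 was at 77.6, 72.9, 74.1 and 74.0 CPM in wild-type soma and at 106.7, 96.4, 85.5 and 92.0 CPM in wild-type neurites (LR 0.35, SE 0.06, edgeR FDR 0.000269). Synj2bp.189 was at 27.6, 26.7, 27.4 and 26.7 CPM in wild-type soma and 38.1, 34.1, 32.1 and 33.5 CPM in wild-type neurites (LR 0.35, SE 0.07, FDR 0.000821). Synj2bp.185 was at 11.6, 14.1, 13.6 and 12.4 CPM in soma and 21.0, 16.2, 15.9 and 18.7 CPM in neurites (LR 0.48, SE 0.11, FDR 0.00392). All 3 were higher in every neurite sample than in any soma sample. The oligo with the opposite sign, Synj2bp.90 on the Synj2bp-202 end, was at 29.0, 31.3, 29.9 and 31.9 CPM in wild-type soma and 23.3, 22.3, 26.2 and 24.7 CPM in wild-type neurites (LR -0.34, SE 0.08, FDR 0.00964), again with no overlap.

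The motif-mutated companions were used to ask whether mutating the TDP-43 motifs alters the change in LR with genotype. Of 775 wild-type Synj2bp oligos, 0 rose and 1 fell in LR, so there was little change for a mutation to remove. Of 397 pairs, 0 differed in their change in LR with genotype (edgeR quasi-likelihood, FDR 0.01, against 7.6% of 4551 pairs in the pool), and 15 had an unadjusted p under 0.05. With reads in place of UMIs the count was also 0. The lowest FDR was 0.0551, the median difference between mutated and wild-type was 0.00, and the middle 95% of pairs lay between -0.24 and 0.24. Grouped by the number of sites, the median change in LR of wild-type oligos was -0.03 with 0 sites, -0.04 with 1, 0.00 with 2 and 0.01 with 3. The summed change in LR was -0.03 for the wild-type members of pairs and also -0.03 for their mutated companions. For LR within wild-type cells, 0 of 397 pairs differed (edgeR quasi-likelihood, FDR 0.01, lowest FDR 0.0394), beside 4.48% of the pool's pairs.

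The pairs with the most changed letters were 118, 119 and 120, which hold sites 3 and 4 and are altered at 17 positions. Synj2bp.120 was at 62.6, 63.1, 62.0 and 63.0 CPM in wild-type soma, 61.1, 67.2, 61.3 and 60.2 CPM in knockout soma, 65.5, 62.4, 65.7 and 67.1 CPM in wild-type neurites and 68.7, 66.1, 70.1 and 64.3 CPM in knockout neurites. Synj2bp.120 mutated was at 25.6, 30.6, 27.4 and 26.0 CPM, 27.3, 25.3, 27.3 and 26.2 CPM, 27.7, 27.3, 28.9 and 24.5 CPM, and 23.9, 25.7, 24.9 and 20.1 CPM in the same 4 groups. The mutated member was lower throughout. No library of the plasmid pool is among the samples, and the RBNS input, transcribed from that pool, was not set against these levels. That offset therefore says nothing of stability. The largest differences in LR change, none past the test, were 0.46 (SE 0.23, edgeR FDR 0.411) for Synj2bp.79, -0.64 (SE 0.27, FDR 0.223) for Synj2bp.84 and -0.33 (SE 0.11, FDR 0.064) for Synj2bp.144. Synj2bp.530 was at 0.36 (SE 0.14), Synj2bp.330 at 0.36 (SE 0.21) and Synj2bp.638 at -0.37 (SE 0.16).

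In vitro, most Synj2bp RNA was depleted from TDP-43 pulldowns. R, the share of an oligo in a pulldown over its share in the input, had a median of 0.675 over 1161 Synj2bp oligos at 0 nM, against 0.882 over the pool. At 5 nM it was 0.645 and 0.522 (pool 0.914 and 0.901), at 50 nM 0.237 and 0.176 (pool 0.664 and 0.591), and at 500 nM 0.169 and 0.411 (pool 0.648 and 0.715) in the 2 libraries. Synj2bp sequence made up 8.92% of input reads, 6.99% at 0 nM, 6.87% and 6.03% at 5 nM, 4.13% and 4.51% at 50 nM, and 5.53% and 7.18% at 500 nM. The share was lowest at 50 nM in both libraries. The percentage of Synj2bp oligos with R above 1 was 17.1 at 0 nM, 3.96 and 7.84 at 50 nM, and 14.0 and 26.1 at 500 nM, against 39.2, 35.9, 33.1, 34.9 and 37.4 over the pool.

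Against the 0 nM pulldown, 23 of 1111 Synj2bp oligos rose at 500 nM and 186 fell (edgeR quasi-likelihood, FDR 0.01), beside 8.93% and 15.6% of 11025 oligos in the pool. The median log2 change was -1.02, with -0.29 over the pool. At 50 nM 0 rose and 3 fell, beside 1.9% and 0.281% of the pool, with a median of -1.51 against -0.39. At 5 nM 0 changed, beside 0% of the pool, and 33 Synj2bp oligos had an unadjusted p under 0.05. The largest estimates at 5 nM came from oligos with few reads, such as Synj2bp.553 with 36 reads at 0 nM and 0 in both 5 nM libraries, and Synj2bp.83 mutated with 0 at 0 nM and 16 and 11 at 5 nM. RBNS changes are relative to the whole pool, and the 0 nM library has no replicate, so its spread was taken from the other libraries. Scaled by TMM, which moved the pool's median at 500 nM from -0.29 to 0.11, 78 Synj2bp oligos rose and 191 fell, with 1657 and 1264 over the pool. Without 500 nM replicate 1 the counts were 38 and 101, and without replicate 2 they were 21 and 359. At 50 nM TMM gave 6 higher and 30 lower Synj2bp oligos, with 828 and 111 over the pool.

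Binding at 500 nM was uneven along the UTR, and median R was higher in wild-type oligos with sites than in those without. The median R of wild-type oligos was 0.105 and 0.292 in the 2 libraries with 0 sites, 0.296 and 0.509 with 1, 0.625 and 1.02 with 2, and 0.612 and 1.96 with 3 (3 oligos). GC content also differed between these groups, with medians of 36.2%, 39.2%, 41.5% and 36.9%. Across 764 wild-type oligos, which overlap each other, the rank correlation of R at 500 nM was 0.934 between the 2 libraries, 0.596 with GC content and 0.059 with R at 0 nM. The part of GC content in this pattern was not tested.

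The highest stretches were at the 5′ end. Median R at 500 nM was 1.05 and 1.10 for numbers 1 to 50, which hold site 1, and 1.17 and 1.60 for numbers 101 to 150, which hold sites 3 and 4. Numbers 51 to 100 had 0.519 and 1.51. Past site 4 it was 0.0568 and 0.0860 for numbers 151 to 200, where the median input was 19 reads and R at 0 nM was already 0.0466. Against 0 nM the median log2 change there was 2.84 over 26 tested oligos, with 0 called. Another, lower rise in median R to 0.426 and 0.764 lay at numbers 301 to 350, around site 5, where the median input was only 14 reads. A further rise to 0.324 and 0.553 lay at numbers 651 to 700, around sites 8 to 10. Numbers 401 to 450, which hold no site, had 0.110 and 0.569. The median log2 change against 0 nM was -0.69 for numbers 651 to 700 and -0.64 for numbers 401 to 450. The distal end, numbers 751 to 780, was at 0.0273 and 0.0612. Of the 10 wild-type oligos that rose at 500 nM, 7 were in numbers 101 to 150, 2 in 1 to 50 and 1 in 401 to 450. By sites, 1 of these 10 held none. Another 13 that rose were motif-mutated, 3.37% of 386 tested, beside 1.38% of 725 wild-type oligos and 8.93% of the pool.

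Synj2bp.149, which carries site 4, had 370 reads in the input, 122 at 0 nM, 102 and 57 at 5 nM, 218 and 946 at 50 nM and 1145 and 1318 at 500 nM. Its R was 0.293 at 0 nM and 1.93 and 3.61 at 500 nM, and its log2 change at 500 nM was 3.24 (edgeR FDR 0.00217). Synj2bp.712 mutated, whose sites 9 and 10 were removed, had 188 input reads, 39 at 0 nM and 386 and 548 at 500 nM (log2 change 3.52, FDR 0.00391). Synj2bp.441, which holds no site, had 116 input reads, 35 at 0 nM and 385 and 370 at 500 nM (log2 change 3.31, FDR 0.00584). Of these 3 oligos, 2 thus rose without any of the searched motifs.

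Among the oligos that fell, Synj2bp.535 mutated had 45 reads in the input, 84 at 0 nM and 0 in both 500 nM libraries. Synj2bp.554 had 33 input reads, 39 at 0 nM and 0 at 500 nM, and Synj2bp.556 had 17, 52 and 0. These 3 come from numbers 501 to 600, where median R at 500 nM was 0.0491 and 0.185, then 0.0302 and 0.107. The 3 that fell at 50 nM were deeper. Synj2bp.572 mutated went from 516 reads at 0 nM to 36 and 59 (log2 change -3.30, SE 0.59, edgeR FDR 0.00792), Synj2bp.693 mutated from 754 to 107 and 124 (-2.50, SE 0.46, FDR 0.00881) and Synj2bp.695 from 634 to 86 and 129 (-2.40, SE 0.44, FDR 0.00872). At 500 nM the last 2 had 252 and 297 reads and 344 and 404 reads. These reads are not scaled for depth, so they do not show a return to the level at 0 nM. The libraries held 6803478 reads at 0 nM, 4408387 and 8152692 at 50 nM, and 9646262 and 5943408 at 500 nM.

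Among oligos with at least 100 input reads, the highest R at 500 nM belonged to the 5′ end, at 4.28 and 3.23 for Synj2bp.2 mutated and 3.72 and 2.92 for Synj2bp.2. Synj2bp.2 had 1405 input reads and 8366 and 4050 reads at 500 nM. Its mutated companion, without site 1, stood as high. Synj2bp.107 mutated followed with 3.11 and 3.36. Among the lowest was Synj2bp.171 at 0.0076 and 0.0161, with 534 input reads and 0 at 0 nM, 17 and 0 at 5 nM, 0 and 6 at 50 nM, and 6 and 8 at 500 nM, so it was nearly absent from every pulldown, that without protein included. Synj2bp.539 mutated, which has lost site 6, was at 0.0075 and 0.0202. With no minimum of input reads, Synj2bp.81 had the highest mean R, at 1.41 and 6.78, from 9 input reads.

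Few pairs passed the test for an effect of motif mutation on binding, and the median effect was below 0 at some sites and above 0 at others. Of 380 pairs tested, 4 fell and 2 rose on mutation at 500 nM (edgeR quasi-likelihood, FDR 0.01), beside 7.55% lower and 0.704% higher of 4118 pairs in the pool, and 74 had an unadjusted p under 0.05. The median effect was -0.30 for Synj2bp and -0.29 for the pool, with 241 of the 380 below 0. By site, the median log2 effect was -1.28 at site 2, where 41 of 42 pairs were below 0, -0.99 at site 6 with 42 of 43, -0.56 at site 8 with 41 of 43, -0.50 at site 5 with 21 of 27 and -0.42 at site 9 with 42 of 43. It was 0.54 at site 1, where 15 of 50 pairs were below 0, 0.49 at site 3 with 3 of 43, and 0.35 at site 11 with 14 of 43. At site 4, the longest motif run, it was 0.10, with 18 of 42 below 0, and median R in the second 500 nM library was 1.60 in wild-type and 1.60 in mutated oligos. Pairs of 1 site overlap each other and are not replicates. All motifs of an oligo were mutated together, and a pair with several sites is counted under each of them. Only 15 of the 43 oligos with site 9 hold that site alone, 18 of 43 with site 3 and 27 of 50 with site 1. At site 5 only 7 pairs had at least 100 input reads for both members.

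Of the 4 pairs that fell, 3 carry sites 1 and 2 together, and the remaining one, Synj2bp.511, carries site 6. Synj2bp.42 had an R at 500 nM of 0.561 and 0.990 and its mutated companion 0.117 and 0.230, a log2 effect of -2.19 (SE 0.37, edgeR FDR 0.00627). Its reads at 500 nM were 1688 and 1837 in wild-type and 346 and 421 in mutated form, with 1882 and 1858 in the input. For Synj2bp.39 R went from 1.47 and 2.35 to 0.362 and 0.655 (-1.93, SE 0.35, FDR 0.00795), and for Synj2bp.35 from 0.784 and 1.16 to 0.215 and 0.336 (-1.83, SE 0.32, FDR 0.00685). Both pairs that rose hold site 1 alone. Synj2bp.8 went from 0.433 and 0.336 to 1.19 and 1.07 (1.57, SE 0.30, FDR 0.00901) and Synj2bp.18 from 0.955 and 1.02 to 2.39 and 2.36 (1.27, SE 0.24, FDR 0.0084). Leaving out either 500 nM library gave 0 calls, so these 6 rest on both. Loss of site 1 thus went with more binding in oligos 8 and 18, and loss of sites 1 and 2 with less binding in oligos 35, 39 and 42.

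SLAM-seq measured how fast labelled reporter RNA disappeared. Label was read as the percentage of T positions read as C. Its median over Synj2bp oligos was 2.00 and 1.98 in wild-type cells at 0 h and 1.85, 1.87 and 1.95 in knockout cells, against 0.205, 0.162 and 0.139 without 4SU. After 12 h it was 1.15, 1.14 and 1.32 in wild-type and 1.34, 0.361 and 0.412 in knockout cells. With the unlabelled level subtracted, 54.9%, 54.0% and 63.5% of the label was left in wild-type cells, beside 54.2%, 54.3% and 63.4% over the pool. In knockout cells 68.6%, 11.1% and 13.5% was left, beside 70.1%, 13.5% and 16.4%. Knockout replicate 1 at 12 h was thus above all wild-type samples and the other two knockout samples were far below them, for Synj2bp and for the pool alike.

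With all libraries, 0 of 1000 Synj2bp oligos lost label in wild-type cells by edgeR's quasi-likelihood test (FDR 0.05), beside 0.00946% of the pool, and 122 had an unadjusted p under 0.05. In knockout cells 998 lost label, beside 97.2% of the pool. The change in loss between genotypes was called for 0, beside 0% of the pool, with 60 at an unadjusted p under 0.05. Median log2 odds of the loss were -0.72 in wild-type and -1.70 in knockout cells, with -0.71 and -1.50 over the pool. Without knockout 12 h replicate 1, 978 Synj2bp oligos lost label in wild-type cells (96.8% of the pool), 1000 in knockout cells (99.7% of the pool), and the loss was larger in knockout cells for 990 and smaller for 0, beside 96.2% and 0.0378% of the pool. The change then ran from -3.05 to -0.48 with a median of -1.56, and -1.33 over the pool. Leaving out any other library gave 0 calls in wild-type cells and 0 calls of a change.

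Along the UTR, the loss in wild-type cells was smallest in numbers 501 to 550, with a median log2 odds of -0.57, and largest in numbers 151 to 200 with -1.07. Label at 0 h was also lowest in numbers 151 to 200, at 1.37% and 1.5% in wild-type and 1.14%, 1.23% and 1.06% in knockout cells, while stretches outside these and numbers 301 to 350 had 1.69% to 2.18% over both genotypes. The largest fitted loss in wild-type cells was that of Synj2bp.171, at -1.47 (SE 0.50, edgeR FDR 0.283), where 0.908%, 0.195% and 0.757% was read as C at 12 h over 121235, 13088 and 72611 T positions. Synj2bp.174 followed with -1.45 and Synj2bp.178 with -1.39, both in the same stretch. In knockout cells it was Synj2bp.222 at -2.54 (SE 0.47, FDR 0.000139), followed by Synj2bp.195 at -2.50 and Synj2bp.225 at -2.48. Label on Synj2bp.222 went from 1.74%, 1.90% and 2.10% to 1.04%, 0.135% and 0.233% in knockout cells and from 2.06% and 2.19% to 0.926%, 0.806% and 1.06% in wild-type cells. The 0 h samples did not overlap those at 12 h in either genotype. The largest differences between genotypes, none called, were at site 5, with -1.92 for Synj2bp.307 mutated, -1.87 (SE 0.66, FDR 0.452) for Synj2bp.307 and -1.85 for Synj2bp.333 mutated.

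The endogenous Synj2bp mRNA fell in CAD cells without TDP-43. In CAD soma it was at 15.5, 18.5 and 16.9 CPM in wild-type and 7.69, 7.22 and 7.91 CPM in knockout cells, and in CAD neurites at 32.7, 37.0 and 35.4 CPM against 10.6, 11.1 and 9.20 CPM. Every knockout sample was below every wild-type sample of its fraction. The fall was -1.16 in soma (SE 0.09, edgeR quasi-likelihood, FDR 1.06e-07) and -1.77 in neurites (SE 0.09, FDR 8.75e-10), where 11.6% and 13.5% of tested genes fell and 11.2% and 11.8% rose. The LR of endogenous Synj2bp changed by -0.61 (SE 0.13, FDR 0.0357), which did not pass the 0.01 threshold, as 0.432% of genes did. By DESeq2 it was -0.62 (FDR 0.0029), and leaving out 1 replicate gave -0.50 to -0.73.

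In N2A cells Synj2bp did not pass the test in either fraction. Its level was 19.8, 22.6 and 25.6 CPM in wild-type and 23.5, 23.6 and 25.6 CPM in knockout soma, and 48.8, 51.4 and 56.1 CPM in wild-type and 42.4, 48.3 and 45.0 CPM in knockout neurites. The difference was 0.10 in soma (SE 0.10, edgeR FDR 0.469, and -0.005 with upper-quartile scaling) and -0.20 in neurites (SE 0.09, FDR 0.143), where 10.9% and 6.48% of genes rose and 5.15% and 5.1% fell. Its LR change was -0.30 (SE 0.13, FDR 0.145), beside 0.1% of genes called. With the Q331K transgene Synj2bp was at 26.2, 23.8 and 27.4 CPM in soma and 37.8, 40.9 and 49.6 CPM in neurites, and with the wild-type transgene at 21.6, 23.2 and 24.9 CPM and 31.2, 39.0 and 35.2 CPM. These groups overlapped, and the LR change was 0.13 (SE 0.16, edgeR FDR 0.999, -0.002 without replicate 3), with 0% of 13940 genes called and 605 of them at an unadjusted p under 0.05.

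Scaled by TMM, Synj2bp mRNA was higher in neurites than in soma in all 3 lines without knockout. Its LR was 1.05 (SE 0.09, edgeR FDR 9.24e-08) in wild-type CAD, 1.20 (FDR 4e-08) in wild-type N2A and 0.60 (FDR 0.000435) with the wild-type transgene. Over all genes 23.7% were higher and 17.7% lower in CAD neurites, and 32.5% and 26.7% in N2A neurites. The LR of the summed reporters in the same CAD line was 0.03, and the difference between reporter and gene was not tested. As a level per length, Synj2bp was at 10.4 ± 1.43 TPM in wild-type and 4.81 ± 0.0451 TPM in knockout CAD soma, and at 6.50 ± 2.00 and 2.23 ± 0.366 TPM in neurites (SD, n = 3). In TPM, which is a share of each library with no TMM scaling, the order of the fractions was the opposite, with 10.4 in soma against 6.50 in neurites in wild-type CAD and 12.8 against 9.73 in wild-type N2A, and neurites were also the lower fraction with the wild-type transgene. With counts scaled for each library's effective transcript length and then by TMM, an alternative added after seeing these values, the LR was 1.05 (edgeR FDR 8.22e-06), 1.21 and 0.62. In wild-type CAD the estimated counts, without TMM, were 741, 835 and 966 in neurites and 590, 677 and 599 in soma. The library totals were 29097754 to 32895542 in neurites and 29134804 to 30026966 in soma. The direction of the LR therefore differed between TPM and counts, and which step of the scaling reversed it was not tested.

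The gene shares exons upstream of the tiled UTR with a read-through gene, Gm20498 (ENSMUSG00000021139), which joins Synj2bp to the neighbouring Cox16, an assembly factor of cytochrome c oxidase. It was examined after the values of Synj2bp had been seen. The transcript Gm20498-201 joins the exon at chr12:81504544-81504639 to an exon at chr12:81489175-81489244 that the other annotated Gm20498 transcripts lack, while Synj2bp-203 joins the same exon to its last exon at chr12:81497941-81502166. The joins are printed from the GENCODE vM21 transcripts, minus strand, with the bases after the join in capitals, because only these bases tell the transcripts apart there.
Gm20498-201: agagtacagcacaggCTAAATAAAACGGAA
Synj2bp-203: agagtacagcacaggTTACCAGTGCAGAAT
Gm20498-201 was at 1.16, 0 and 0 TPM in wild-type and 14.3, 10.7 and 18.2 TPM in knockout CAD soma, and at 0 in all 3 wild-type and 11.3, 13.1 and 9.48 TPM in knockout CAD neurites. In N2A its mean was 0.806 and 3.82 TPM in soma and 0.179 and 3.62 TPM in neurites. The most abundant transcripts that end in the tiled UTR, Synj2bp-203 and Synj2bp-204, fell in knockout CAD cells. Synj2bp-204, whose last exon ends upstream of that of Synj2bp-203, went from 7.07 to 2.33 TPM in soma and from 5.05 to 1.53 TPM in neurites, and Synj2bp-203 went from 2.46 to 1.14 TPM and from 1.25 to 0.458 TPM. The low Synj2bp-201 and Synj2bp-202 did not, at 0.384 and 1.03 TPM and at 0.19 and 0.298 TPM in wild-type and knockout CAD soma.

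As a gene, Gm20498 rose by 1.09 in CAD soma (SE 0.14, edgeR FDR 1.75e-05) and by 1.47 in CAD neurites (SE 0.14, FDR 5.52e-07), while in N2A the difference was 0.62 in soma (FDR 0.0211) and 0.35 in neurites (FDR 0.187), which did not pass. With counts scaled for effective length the difference of Gm20498 in N2A soma was 0.97 and passed (edgeR FDR 0.00128). Gm20498-201 took 19.6% to 31.4% of the estimated counts of both genes in knockout CAD libraries and 0% to 1.64% in wild-type ones, 2.07% to 4.45% and 0% to 1.26% in N2A, and 0% to 1.49% in the transgene lines. Cox16 itself differed by 0.22 in CAD soma (FDR 0.0701) and 0.03 in CAD neurites. Estimated counts divide reads of shared exons between overlapping transcripts, so how the reads split is uncertain. With the counts of Synj2bp and Gm20498 added together, the fall in CAD was -0.59 in soma (edgeR FDR 0.000144) and -0.87 in neurites (FDR 2.26e-06), and the LR change was -0.28 (FDR 0.476).

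Genes that act with Synj2bp were examined as a list of 6. In CAD soma, where 11.2% of all genes rose and 11.6% fell, Synj2, the Pink1 tether, rose by 0.90 (edgeR FDR 8.32e-07), and the ribosome-binding protein Rrbp1, the activin receptor Acvr2a and the Notch ligand Dll4 fell by 0.62, 0.40 and 0.98. In CAD neurites, where 11.8% and 13.5% did, Synj2 rose by 0.64 and Rrbp1 fell by 0.62, and with counts scaled for effective length Synj2 was at 0.18 there and did not pass (edgeR FDR 0.389), nor did Dll4 in CAD soma (FDR 0.0695). In N2A, where 10.9% of all genes rose in soma and 6.48% in neurites, the Notch ligand Dll1 rose by 0.64 and by 0.53, the latter lost with counts scaled for effective length (edgeR FDR 0.104). The LR change of 0 members of the list passed in any line, beside 0.432% of all genes in CAD, 0.1% in N2A and 0% with the transgenes. Of the 6 partners, Pink1 alone was higher in neurites than in soma of wild-type CAD cells, with an LR of 1.53 in CAD and 1.21 in N2A.

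A list of 25 other genes for mitochondrial outer-membrane proteins was also examined. In CAD soma, where 11.2% of all genes rose and 11.6% fell, 2 of the 25 rose, the apoptosis inhibitor Bcl2l1 by 0.39 and the import pore subunit Tomm6 by 0.23, and 0 fell. In CAD neurites, where 11.8% of all genes rose and 13.5% fell, 2 rose, Bcl2l1 and Mtch2, and 4 fell, the fusion GTPase Mfn1 and its regulators Miga1 and Miga2 and the insertase homolog Mtch1. In N2A 4 rose and 2 fell in soma, where 10.9% and 5.15% of all genes did, and in neurites, with 6.48% and 5.1%, 0 rose and 3 fell, the mitophagy receptor Bnip3, Miga1 and the motor adaptor Rhot1. The LR change passed for 0 of them in either line, as it did for 0.432% of all genes in CAD and 0.1% in N2A, and its median over the list was -0.02 in CAD and -0.35 in N2A, with -0.005 and -0.01 over all genes. With counts scaled for effective length, 1 of the 25 rose and 0 fell in CAD soma, beside 7.94% and 8.52% of all genes. In CAD neurites 2 rose and 2 fell, beside 8.87% and 10.7%. Tomm6 in CAD soma (edgeR FDR 0.0326) and Mfn1 and Miga1 in CAD neurites (FDR 0.937 and 0.0266) were then lost. So was Rhot1 in N2A neurites (FDR 0.121).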

How the data were processed

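The oligos, lists and tests were chosen with earlier results of these data known. The authors deposited MPRA tables with a read count and a count of unique molecular identifiers (UMIs, 8 bases) per oligo, RBNS tables with a read count per oligo, and SLAM-seq tables with counts of T positions and of T-to-C conversions per oligo. For endogenous RNA the deposited tables held estimated counts and TPM per transcript from Salmon, with cutadapt and the build mm10 in the submitters' processing notes. Estimated counts were summed by gene with GENCODE vM21, while the study names another Gencode release, and at most 0.129% of a library's estimated counts had no gene. They were rounded to whole numbers before testing. Oligo positions were inferred from the oligo numbers, the 6-base step and the gene models. The human libraries were not used here, and 0 columns of per-sample values were left unused.

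Tests were edgeR (4.0.16) quasi-likelihood fits on all oligos or genes in R 4.3.3, two-sided, with Benjamini-Hochberg adjustment over all of them and edgeR's own filter on low counts. The MPRA fit used UMIs, TMM scaling and the terms genotype, fraction and their interaction, the RBNS fit used total reads as library size against 0 nM (for motif mutations, oligo pairs against the input), and the SLAM fit compared converted with unconverted T positions at a minimum of 1000 T positions in each library. Thresholds were an FDR of 0.01, and 0.05 for SLAM. R and rates had 0.5 added to the counts. Intervals for depth were not needed, since the spread between samples was used. The fits were tested on simulated data first. For each test the 3 largest rises and 3 largest falls past its threshold were named, or the 3 largest estimates each way where none passed, together with the oligos of highest and lowest R at 500 nM (also with a minimum of 100 input reads) and the 3 pairs with the most mutated positions. The other oligos were described in windows of 50 numbers. Alternatives were DESeq2 (1.42.0), limma (3.58.1), other scalings, filters, denominators and coverage minimums, reads in place of UMIs, the replicate number as a block, counts scaled for effective length and counts of overlapping genes added together (both chosen after seeing the data), and leaving out each replicate or library.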

Additional observations from a re-analysis of the deposited data

Results flagged for a closer look

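Among 72 groups of 4 samples checked, those of the named reporters in the MPRA, 2 held a sample far from the other 3, and chance alone would give about 1 in 20. In knockout soma, Synj2bp.342 mutated was at 28.4, 28.7 and 28.7 CPM in 3 samples and at 25.6 CPM in replicate 2, a gap of 0.902 of the range. In knockout neurites, Synj2bp.144 was at 98.4, 99.1 and 99.3 CPM in 3 samples and at 84.5 CPM in replicate 2, a gap of 0.938 of the range.

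The localization of Synj2bp.766 differed between genotypes, with a change in LR of -0.35 (interaction term of the edgeR fit, FDR 0.00693), and this call was lost without any 1 of the 4 replicates.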

How the results depend on the processing

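Most counts for Synj2bp reporters depended on the threshold and on the libraries kept. At an FDR of 0.05 the calls were 3 for the change in LR, 14 in soma, 21 in neurites, 32 for LR in wild-type cells, 460 at 500 nM, 289 at 50 nM and 40 for motif mutations in RBNS. Upper-quartile scaling gave 5 for the change in LR, 13 in soma and 366 in neurites, DESeq2 gave 19 for LR in wild-type cells, and reads in place of UMIs gave 0 for the change in LR and 0 in soma. At 50 nM the input as denominator gave 193 and TMM 36, and the 0 nM library as denominator of the motif mutations gave 12. Leaving out 1 replicate gave 0 to 1 calls for the change in LR, 0 to 2 in soma, 1 to 6 in neurites, 3 to 8 for LR in wild-type cells, 0 to 1 for MPRA motif mutations, 139 to 380 at 500 nM, 0 to 2 at 50 nM and 0 for RBNS motif mutations. In SLAM-seq, leaving out 1 library gave 0 to 978 for loss in wild-type cells and 0 to 990 for its change, the upper values without knockout 12 h replicate 1. Endogenous Synj2bp in CAD passed for its change in LR by DESeq2 (-0.62), and in N2A soma it was -0.005 with upper-quartile scaling. Its change with Q331K ran from -0.002 without replicate 3 to 0.20. The cause of these shifts was not tested, and oligos with few input reads limit R.

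Same-numbered replicates were not treated as pairs, since not every pair's correlation was over 0.1: the correlation of their deviations ran from -0.07 to 0.18 in the MPRA, -0.27 to 0.15 in RBNS, -0.04 to 0.05 in SLAM-seq, -0.04 to 0.59 in CAD (median 0.32) and -0.11 to 0.47 in N2A (median 0.30). In CAD and N2A the medians for different numbers were -0.17 and -0.09, a hint from the data that same-numbered samples vary together there. With the replicate block, binding at 50 nM gave 0 calls, 500 nM gave 150, and no other count left the range of 1.5 times its value without the block. The tests of endogenous Synj2bp stayed on the same side of the threshold with the block and with counts scaled for effective length, where its change in LR was -0.61 and -0.79 in CAD.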

Other observations

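Oligos 170 to 173, just past site 4, were nearly absent from every RBNS pulldown, with or without protein. Synj2bp.170 had 443 reads in the input, 0 at 0 nM, 0 and 0 at 5 nM, 6 and 7 at 50 nM, and 4 and 8 at 500 nM. Synj2bp.172 had 51 reads in the input and 0 in every pulldown. The same stretch, numbers 151 to 200, had the highest median LR of the MPRA in wild-type cells, 0.18, the lowest median label at 0 h, 1.37% and 1.5%, and the largest median loss of label in wild-type cells, -1.07 on the log2 odds scale. Whether these 4 readouts are linked was not tested.

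Most genes of the outer-membrane list were, like Synj2bp, higher in neurites than in soma when scaled by TMM, while in TPM Synj2bp itself was lower in neurites. Of 25, 18 were higher and 1 lower in wild-type CAD neurites than in soma (edgeR, FDR 0.01), beside 23.7% and 17.7% of all genes, with a median LR of 0.48 against -0.02 over all genes. In N2A 19 were higher and 0 lower, beside 32.5% and 26.7% of all genes, with a median of 0.97 against -0.04, and with the wild-type transgene 13 were higher and 1 lower. With counts scaled for effective length the counts were 16 and 1, 19 and 2, and 12 and 0. The higher ones in both knockout lines' wild-type cells included the porins Vdac1, Vdac2 and Vdac3 and the import subunits Tomm20, Tomm22 and Tomm40. Without that length scaling, Miga2 was the lower one in CAD and with the transgene. With it, Miga2 did not pass in either (edgeR FDR 0.0425 and 0.0267), and Mfn1 was the lower one in CAD (LR -0.497, FDR 0.00146).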
